A study of Mus musculus with 12 samples.

Results

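The neuronal differentiation genes described here are 37 genes of neurons and of the step from neural progenitor cells (NPCs) to neurons, among 21154 named genes on the array. Stmn1, which is also widespread in dividing cells, is among the 37. The genes were selected on their known function with earlier results of these data known, the differences of the arrays labelled Srf among them, and Stmn2 was named in the rule for its decrease there. Differences between the arrays labelled Srf and their control are therefore given as a description, with no test. The other comparisons are tested across all probes, and the choice of genes was not shown to be independent of them. Gene expression was measured in 12 one-color arrays, 2 for each of 6 groups of mouse NPCs, which had been made in vitro from embryonic stem cells and were kept on gelatin with EGF and bFGF. In the overexpression arm, retroviruses carried the open reading frame of EGFP (the control), of Mkl1 or of Srf. In the knockdown arm, the hairpin in the retrovirus targeted EGFP in the control group (shEGFP) and Actb in 2 groups with different hairpins (shActb_1 and shActb_2). The vectors carry puromycin resistance, so all 6 groups are infected cells. The study used an NPC line, NSEB5-2C, and a derivative of it, N31, that carries doxycycline-inducible reprogramming genes, and which of them served for these arrays is not given in the sources used here. The study calls the duplicate arrays of the knockdown technical. Whether the overexpression duplicates are separate cultures is not given in the sources used here, and the fit pools the spread of all 6 groups. The p-values below are therefore taken to measure the spread between arrays and not between cultures.

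Srf is a transcription factor that binds CArG boxes, and Mkl1 (listed as Mrtfa in current annotation) is its coactivator, which free actin monomers hold in the cytoplasm. A neuron leaves the progenitor state by extending a neurite, for which it needs stable and dynamic microtubules, a growth cone that reads guidance cues, adhesion molecules and, later, the machinery of synaptic release. Stathmins bind tubulin dimers and favor microtubule disassembly. Stmn1 is widespread in dividing cells, whereas Stmn2, Stmn3 and Stmn4 are neuronal and are anchored to membranes of the Golgi and growth cone.

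All 37 genes had a probe on the array, 60 probes in all, and 20 of the genes had 1 probe. A probe was tested in a comparison if it was well above background on both arrays of at least 1 of the groups compared. By this filter 34 genes, with 49 probes, were tested in at least 1 comparison, and 29 genes had a probe above background on all 12 arrays. Stmn3, Scg2 and Gad1 were not tested. The probes of Stmn3 and Scg2 were above background on 1 array each, and that of Gad1 on 0. Just inside the filter were Chga, above background on 4 arrays, Myt1l on 5, Rbfox3 on 6 and Elavl3 on 8. Levels are log2 of the processed signal minus the 75th percentile of the array, and they compare arrays for 1 probe, not probes with each other. Differences are log2 differences of group means with standard errors (SE) from limma. A probe was called when its Benjamini-Hochberg adjusted p over all probes tested was under 0.05 and its change exceeded 2-fold.

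As a check of the labels, Actb averaged 8.75 with shEGFP, 8.21 with shActb_1 and 8.09 with shActb_2 (n = 2 arrays each), a difference of -0.53 (SE 0.05, limma adjusted p = 0.00128) and -0.65 (SE 0.05, limma adjusted p = 0.000197). The brightest Mrtfa probe averaged 3.64 with Mkl1 and 3.47 with EGFP, which was within the error (0.17, SE 0.11, limma adjusted p = 0.312). Both Srf probes were lower on the arrays labelled Srf than with EGFP, at 1.26 against 2.66 and at 0.25 against 2.71, which goes against the label. The smooth muscle genes Acta2, Cnn1 and Tagln, known as targets of Srf, were higher on those arrays than with EGFP, by 3.37 (SE 0.08), 1.14 (SE 0.07) and 2.34 (SE 0.22). Whether the Srf probes can detect the transgene was not determined, and the term "arrays labelled Srf" is used throughout. Array duplicates correlated with r from 0.9933 (EGFP) to 0.9976 over probes above background on both. The arrays lay on 3 slides, with the overexpression arm on slide 1, shEGFP and shActb_1 on slide 2, and shActb_2 alone on slide 3, so that slide and hairpin cannot be told apart for shActb_2. Of 11 neural stem cell markers, 10 or 11 were above background on both arrays of every group. Of the astrocyte markers, 4 or 5 of 7 were above background on both arrays of every group. Of the oligodendrocyte lineage markers, 7 of 9 were above background on both arrays of every group, with a summed level of 12.2 to 29.7, and Olig1 was above background on no array.

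4 members fell with Mkl1 and with each Actb hairpin, each on its brightest probe. They were Stmn2, the growth cone protein Gprin3, the dendritic microtubule protein Map2 and the interneuron homeobox factor Dlx5, and their differences ranged from -1.14 to -2.33. In all, 6 of the 45 member probes tested in every comparison with a control were lower in these 3, beside 93 of 32476 probes (0.286%) on the array. With Mkl1, 8 of 47 member probes were called, all lower (6 genes), against 2.78% of all 35767 probes tested and 1.49% called lower. The EGFP duplicates differed by over 2-fold at 2.74% of probes, beside 0.499% to 1.54% in the other groups, and without EGFP replicate 2 the share of all probes called with Mkl1 was 5.9%, with 8 member probes called. With only the Mkl1 and EGFP arrays in the fit 3 member probes were called (Dlx5 and the dimmer probes of Gprin3 and Map2), beside 0.352% of all probes. Stmn2 (limma adjusted p = 0.0671) and the brightest probes of Map2 (limma adjusted p = 0.051) and Gprin3 (limma adjusted p = 0.0591) then no longer passed, at the same differences. With shActb_1, 6 of 47 member probes were called, all lower (4 genes), against 1.61% of all probes and 1.12% called lower. With shActb_2, 6 of 47 member probes were called, all lower (4 genes), against 6.31% of all probes, 1.73% called higher and 4.58% called lower. The median difference of the member probes was -0.30 with Mkl1, -0.14 with shActb_1 and -0.23 with shActb_2, beside -0.03, 0.01 and -0.02 over all probes tested. Most members did not pass: 24 of the 34 genes tested were called in none of the 4 comparisons with a control, that of the arrays labelled Srf included. By probe, 32 of 45 member probes were called in none of the 4, beside 89.1% of all probes. The Mkl1 comparison uses the same EGFP arrays as the Srf comparison, which was in view when the set was drawn up, and both hairpin comparisons use the same shEGFP arrays. The sample is bulk RNA, in which fewer cells of a type and less RNA per cell cannot be told apart.

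On the arrays labelled Srf 2 member probes were higher by the same thresholds (Tubb3 and Gprin1) and 7 were lower (Stmn2, Gprin3, Dpysl3, Crmp1 and Dlx5) of 47, beside 5.54% of all 35556 probes, 3.29% higher and 2.25% lower. The median of the member probes was -0.04, the same as that of all probes. Nothing is read from these counts, since this comparison chose the set.

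**Figure D1:**
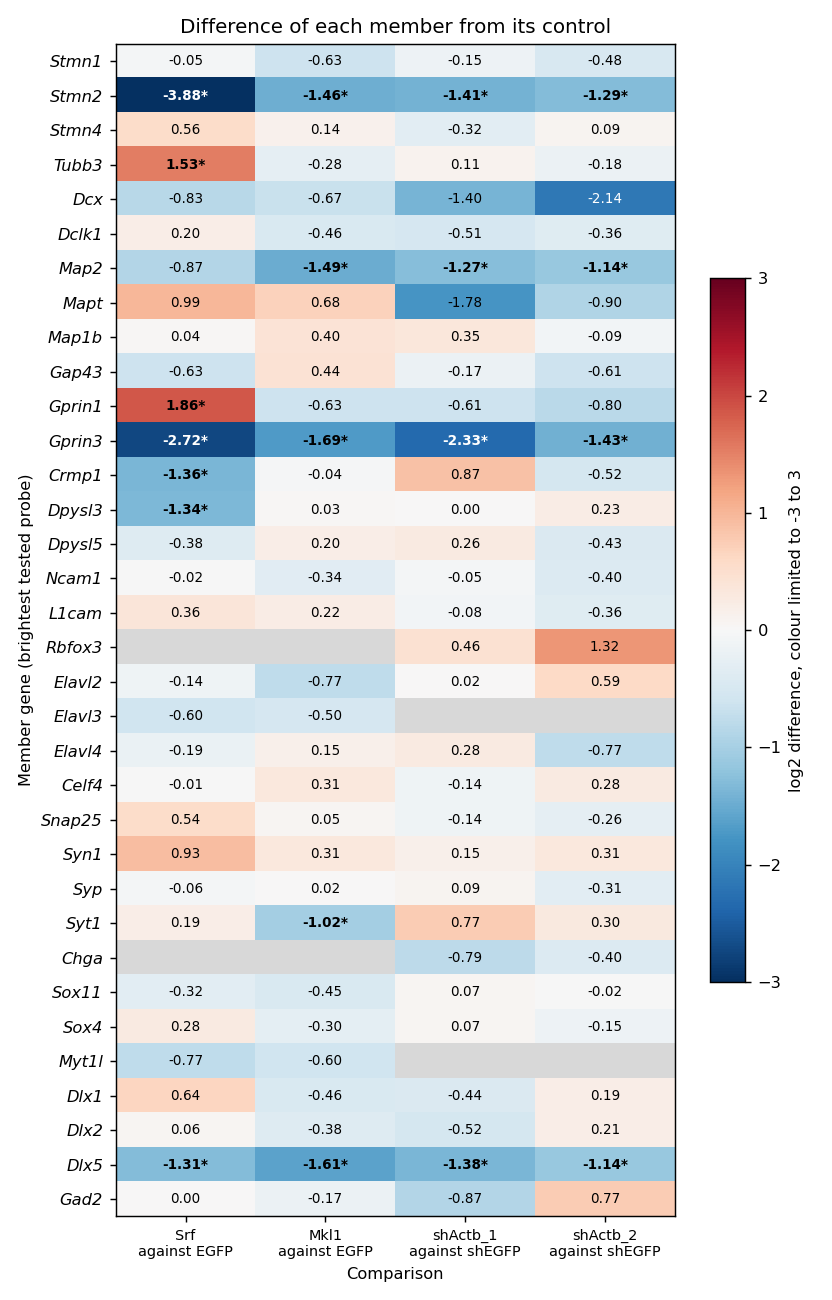
Log2 difference from the control (colour and printed value) for each member with a tested probe, rows, in the 4 comparisons, columns. An asterisk marks a probe past both thresholds, grey marks a probe not tested, and in the Srf column, which chose the set, the asterisk is a description. Stmn2, Gprin3, Map2 and Dlx5 are lower in every column, with Map2 under 2-fold in the Srf column, and Tubb3 and Gprin1 are past the thresholds in the Srf column only.

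Of the called members with an entry in the RefSeq promoter table used here (GRCm38.p6), which Stmn2 and Dlx5 are not among, 4 are shown by the 250 bases before their start of transcription, each read 5′ to 3′ on the strand of the gene. Map2 and Gprin3 fell with Mkl1 and both hairpins, and Tubb3 and Gprin1 were higher on the arrays labelled Srf. Capitals mark matches, on either strand, to the CArG box, to the RE1 left-arm letters TTCAGCACC (part of the element bound by the neuronal gene repressor Rest), to the GC box GGGCGG, to the CCAAT box CCAAT and to the TATA box TATAAA.
Map2, chr1:66175079-66175328, plus strand: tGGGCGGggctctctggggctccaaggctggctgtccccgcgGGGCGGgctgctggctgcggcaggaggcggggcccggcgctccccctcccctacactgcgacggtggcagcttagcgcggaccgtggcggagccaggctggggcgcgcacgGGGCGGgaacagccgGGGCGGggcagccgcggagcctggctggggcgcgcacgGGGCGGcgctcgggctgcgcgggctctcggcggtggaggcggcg
Gprin3, chr6:59426307-59426556, minus strand: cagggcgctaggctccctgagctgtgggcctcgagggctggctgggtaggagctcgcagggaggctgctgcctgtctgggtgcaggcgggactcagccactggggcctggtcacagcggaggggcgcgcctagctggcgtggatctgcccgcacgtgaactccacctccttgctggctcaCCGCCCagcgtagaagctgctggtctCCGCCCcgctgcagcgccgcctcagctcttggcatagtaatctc
Tubb3, chr8:123411303-123411552, plus strand: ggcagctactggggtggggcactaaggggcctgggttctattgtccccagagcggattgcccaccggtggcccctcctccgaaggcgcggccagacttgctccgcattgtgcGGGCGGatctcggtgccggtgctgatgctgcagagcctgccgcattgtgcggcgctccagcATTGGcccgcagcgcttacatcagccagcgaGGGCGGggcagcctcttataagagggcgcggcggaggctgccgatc
Gprin1, chr13:54749875-54750124, minus strand: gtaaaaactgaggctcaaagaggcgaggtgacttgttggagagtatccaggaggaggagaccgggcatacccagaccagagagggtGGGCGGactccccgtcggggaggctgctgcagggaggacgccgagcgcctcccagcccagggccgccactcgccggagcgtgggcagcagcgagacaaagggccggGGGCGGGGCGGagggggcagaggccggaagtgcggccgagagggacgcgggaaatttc

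The capitals in these promoters are GC boxes, 5 in Map2, 2 in Gprin3, 2 in Tubb3 and 3 in Gprin1 (where 2 of the matches overlap), and 1 CCAAT box in Tubb3. A GC box stood in 32.7% of all 32851 promoters and in 52.3% of the 44 member promoters. The CCAAT box stood in 33.8% and 47.7%, and the TATA box in 12.4% and 11.4%. The CArG box and the RE1 left-arm letters had 0 matches in these 4 windows, which says only that these letters are not there. Of the 37 members, 27 had promoters in the table, 44 in all. The CArG box occurred in 2 of the 44 (4.55%), both of Elavl4, beside 1.47% of all promoters. The 2 matches are the same genomic site, reached from 2 starts of Elavl4. By gene this is 1 of 27 members, beside 439 of 27025 genes. The RE1 left-arm letters occurred in 1 of the 44 (2.27%), that of Syn1, beside 0.301%. These windows are shown because Elavl4 and Syn1 return below with values of their own, and the capitals mark the motif.
Elavl4, chr4:110287538-110287567, minus strand: acagatggtcCCATAAATGGatgtaaaaag
Syn1, chrX:20921131-20921160, minus strand: cactgtcggaTTCAGCACCgcggtcagagc

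Among the stathmins, Stmn2 was lower in every treatment. Its level was 2.53 and 2.28 on the EGFP arrays, 1.1 and 0.79 with Mkl1, and -1.43 and -1.52 on the arrays labelled Srf. It was 2.17 and 2.07 with shEGFP, 0.82 and 0.59 with shActb_1, and 0.94 and 0.71 with shActb_2. All 4 control arrays thus lay above all 8 arrays of the treated groups, and those labelled Srf lay lowest. Stmn2 fell by 1.46 on the log2 scale with Mkl1 (SE 0.15, 2.76-fold, limma adjusted p = 0.000942), by 1.41 with shActb_1 (SE 0.15, 2.66-fold, limma adjusted p = 0.00152) and by 1.29 with shActb_2 (SE 0.15, 2.45-fold, limma adjusted p = 0.000648). The 2 hairpins differed from each other by 0.12 (SE 0.14, limma adjusted p = 0.566). The difference on the arrays labelled Srf was -3.88 (SE 0.15), or 14.7-fold.

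Stmn1, the stathmin of dividing cells, was lower by less than 2-fold with Mkl1 and shActb_2. Its level was 5.82 and 5.61 with EGFP, 5.05 and 5.11 with Mkl1, and 5.68 and 5.64 on the arrays labelled Srf. In the knockdown arm it was 5.48 and 5.44 with shEGFP, 5.34 and 5.27 with shActb_1, and 5.0 and 4.96 with shActb_2. The difference was -0.63 with Mkl1 (SE 0.08, limma adjusted p = 0.00205), -0.48 with shActb_2 (SE 0.08, limma adjusted p = 0.00274) and -0.15 with shActb_1 (SE 0.08, limma adjusted p = 0.314). It was -0.05 (SE 0.08) on the arrays labelled Srf, and its sign there turns with the normalization and with 1 EGFP array left out. The other Stmn1 probe gave -0.54, -0.35, -0.17 and 0.01 in the same order.

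Stmn4 lay between -3.95 and -2.84 on all 12 arrays and passed no test. Its difference was 0.14 with Mkl1 (limma adjusted p = 0.652), -0.32 with shActb_1 (limma adjusted p = 0.429) and 0.09 with shActb_2 (limma adjusted p = 0.742), each with SE 0.20, and 0.56 on the arrays labelled Srf. Its dimmer probe gave -0.04, -0.59, -0.55 and 0.69, so the probes had opposite signs with Mkl1 and shActb_2. Without 1 of the shActb_2 arrays the brighter probe also turned negative there. Stmn3 lay between -7.83 and -5.31, at or near background.

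Of the microtubule proteins of neurons, Map2 fell and Tubb3 did not pass in any tested comparison. Map2, which marks dendrites, read 1.03 and 0.84 with EGFP, -0.55 and -0.56 with Mkl1, and 0.06 and 0.07 on the arrays labelled Srf. It read 0.74 and 0.86 with shEGFP, -0.44 and -0.51 with shActb_1, and -0.44 and -0.24 with shActb_2. No treated array reached a control array. Map2 fell by 1.49 with Mkl1 (SE 0.09, 2.81-fold, limma adjusted p = 0.000167), by 1.27 with shActb_1 (SE 0.09, limma adjusted p = 0.000352) and by 1.14 with shActb_2 (SE 0.09, limma adjusted p = 0.000218). Its dimmer probe gave -1.55, -1.3 and -1.03, the last under 2-fold without shEGFP replicate 2 (-0.98). The difference on the arrays labelled Srf, -0.87 (SE 0.09), stayed under 2-fold.

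Tubb3, the neuronal β-tubulin, was -1.45 and -1.17 with EGFP and 0.31 and 0.14 on the arrays labelled Srf, a difference of 1.53 (SE 0.11), or 2.9-fold. With Mkl1 it read -1.58 and -1.61. The tested differences were -0.28 with Mkl1 (SE 0.11, limma adjusted p = 0.104), 0.11 with shActb_1 and -0.18 with shActb_2. The 2 tubulin-binding genes Stmn2 and Map2 and the tubulin gene Tubb3 thus took different directions on the arrays labelled Srf.

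The doublecortin family was mixed. Dcx, which labels migrating neuroblasts, lay between -7.47 and -3.39 and was above background on 10 of 12 arrays. Its difference was -2.14 with shActb_2 (SE 0.77), where it was above background on 1 array, against 2 with shEGFP. There it met the filter only through the group where it is high, so no test is given for it, although it is among the counts. For Dclk1 the probes for different transcripts disagreed. The brightest probe gave -0.46 with Mkl1, -0.51 with shActb_1 and -0.36 with shActb_2 (SE 0.14), with limma adjusted p between 0.0515 and 0.0726. A second probe of the same transcript gave -0.47 (limma adjusted p = 0.00351), -0.71 (limma adjusted p = 0.00114) and -0.31 (limma adjusted p = 0.00891). A probe for another transcript gave 0.45 with Mkl1 (SE 0.12, limma adjusted p = 0.0392) and 0.65 with shActb_2 (SE 0.12, limma adjusted p = 0.00547). Mapt and Map1b, which stabilize axonal microtubules, passed no test against a control. The probes of Mapt disagreed with Mkl1, at 0.68 (SE 0.68) on the brightest and -0.47 (SE 0.18) on the other, and Map1b differed by 0.40 with Mkl1, 0.35 with shActb_1 and -0.09 with shActb_2 (SE 0.13). Between the hairpins Map1b differed by -0.44 (SE 0.13, limma adjusted p = 0.0385).

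**Figure D2:**
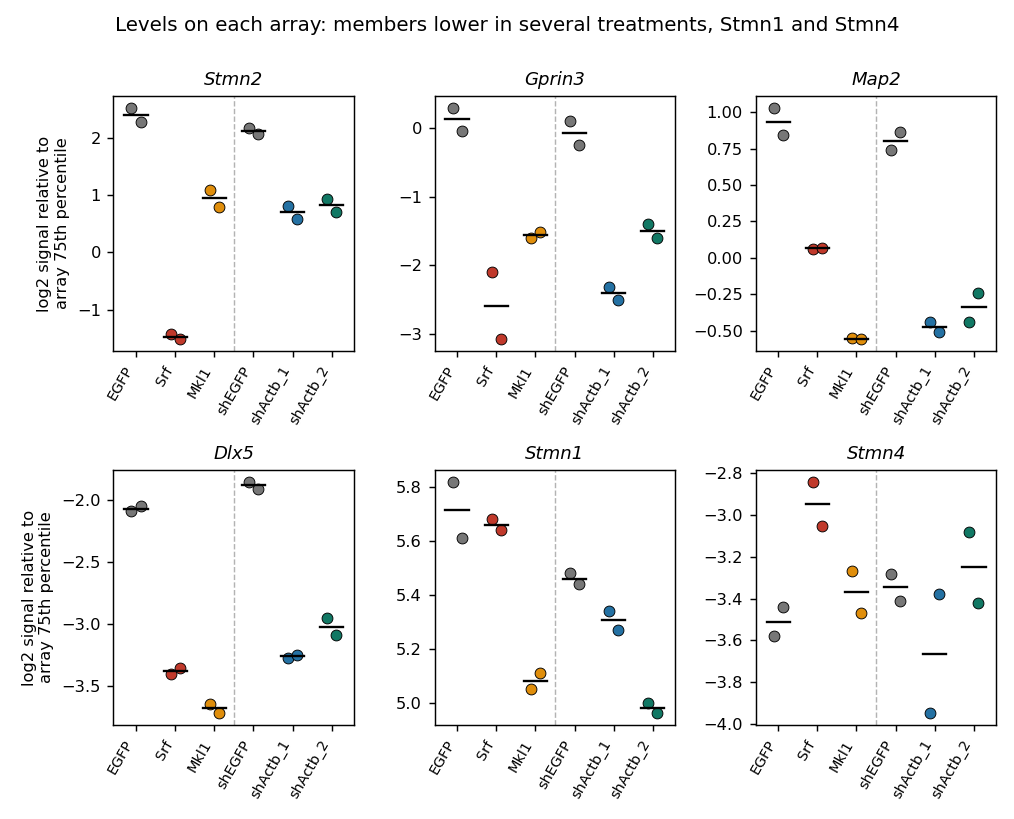
Level of 6 members on each array, as log2 signal relative to the 75th percentile of the array, with 1 point per array and a bar at the mean of the 2 arrays of a group. The dashed line separates the overexpression arm from the knockdown arm. For Stmn2, Gprin3, Map2 and Dlx5 every control array lies above every treated array, and Stmn4 shows no such order.

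The growth cone and collapsin response proteins held both the other large decrease and the largest increase among the members. Gprin3, a G protein-regulated inducer of neurite outgrowth, read 0.30 and -0.04 with EGFP, -1.60 and -1.51 with Mkl1, and -2.10 and -3.08 on the arrays labelled Srf. It read 0.10 and -0.25 with shEGFP, -2.32 and -2.50 with shActb_1, and -1.40 and -1.60 with shActb_2. Treated and control arrays did not overlap. Gprin3 fell with Mkl1 (-1.69, SE 0.30, 3.22-fold, limma adjusted p = 0.00789), with shActb_1 (-2.33, SE 0.30, 5.04-fold, limma adjusted p = 0.00354) and with shActb_2 (-1.43, SE 0.30, 2.69-fold, limma adjusted p = 0.00742). This probe no longer passed with shActb_2 without shEGFP replicate 1 (limma adjusted p = 0.0553) or shActb_2 replicate 2 (limma adjusted p = 0.0551), or with Mkl1 without Mkl1 replicate 2 (limma adjusted p = 0.0519). Its other probe, with SE 0.13, gave -1.86, -2.22 and -1.34 and passed without each of these arrays. The differences on the arrays labelled Srf were -2.72 and -2.96. Between the hairpins the dimmer probe differed by 0.88 (SE 0.13, limma adjusted p = 0.00305), with Gprin3 lower under shActb_1, and the brighter probe by 0.91 (SE 0.29, limma adjusted p = 0.0501).

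Gprin1, of the same family, was lower in the tested comparisons with a control and higher on the arrays labelled Srf. It read -2.60 and -2.72 with EGFP, -3.37 and -3.21 with Mkl1, and -0.75 and -0.84 on the arrays labelled Srf. It read -2.30 and -2.39 with shEGFP, -2.92 and -3.01 with shActb_1, and -3.11 and -3.18 with shActb_2. The arrays of no group overlapped those of its control. The difference was -0.63 with Mkl1 (SE 0.08, limma adjusted p = 0.00248), -0.61 with shActb_1 (SE 0.08, limma adjusted p = 0.00449) and -0.80 with shActb_2 (SE 0.08, limma adjusted p = 0.000478), all under 2-fold. The difference was 1.86 (SE 0.08), or 3.64-fold, on the arrays labelled Srf.

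The collapsin response mediators carry semaphorin signals to the cytoskeleton. Dpysl3 was 4.77 and 4.43 with EGFP and 3.21 and 3.31 on the arrays labelled Srf, a difference of -1.34 (SE 0.11), and its other probe gave -1.03. With Mkl1 it differed by 0.03, with shActb_1 by 0.00 and with shActb_2 by 0.23 (SE 0.11), none past the test, and its other probe gave -0.08 with shActb_2 (SE 0.08). Crmp1 was -0.87 and -0.38 with EGFP and -1.92 and -2.05 on the arrays labelled Srf (-1.36, SE 0.15), and -0.72 and -0.61 with Mkl1. Under the hairpins Crmp1 went opposite ways, as described below. Dpysl5 differed by -0.43 with shActb_2 (SE 0.12, limma adjusted p = 0.0235) and by 0.20 with Mkl1 (limma adjusted p = 0.27). Gap43, the growth cone phosphoprotein, differed by 0.44 with Mkl1 (limma adjusted p = 0.0116), by -0.61 with shActb_2 (limma adjusted p = 0.00149), by -0.17 with shActb_1 (limma adjusted p = 0.308) and by -0.63 on the arrays labelled Srf.

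**Figure D3:**
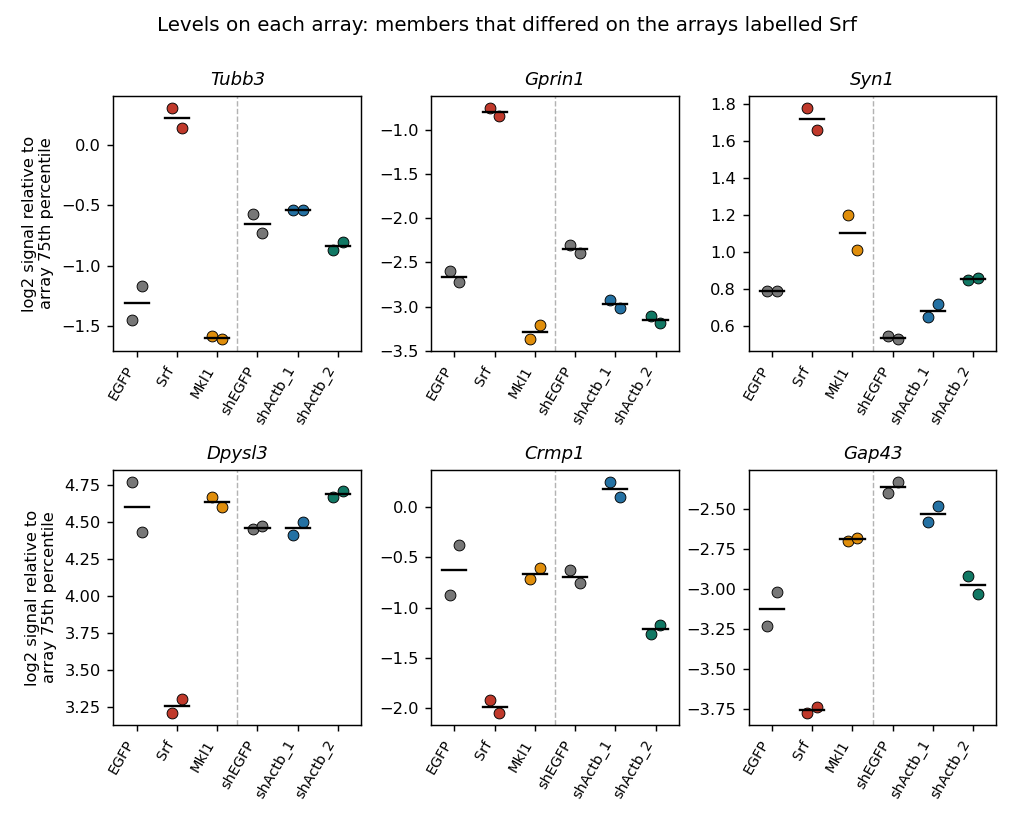
Level of 6 members on each array, as log2 signal relative to the 75th percentile of the array, with 1 point per array and a bar at the mean of 2 arrays. On the arrays labelled Srf, Tubb3, Gprin1 and Syn1 lie above the EGFP arrays and Dpysl3, Crmp1 and Gap43 below them.

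The adhesion molecules Ncam1 and L1cam, which bundle axons, had 0 calls in any comparison. The brightest Ncam1 probe differed by -0.34 with Mkl1 (SE 0.09, limma adjusted p = 0.0337) and by -0.40 with shActb_2 (SE 0.09, limma adjusted p = 0.00978), while a second probe gave -0.16 and 0.18 and the dimmest 0.26 and 0.14 (SE 0.19). L1cam differed by 0.22, -0.08 and -0.36 (SE 0.18) with Mkl1, shActb_1 and shActb_2, and passed no test.

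Among the RNA-binding proteins, Elavl2, a Hu protein that stabilizes neuronal transcripts, moved in opposite directions with Mkl1 and shActb_2. Its dimmer probe read -3.04 and -3.43 with EGFP and -4.16 and -4.42 with Mkl1, a decrease of 1.06 (SE 0.13, 2.08-fold, limma adjusted p = 0.00233). Its brighter probe gave -0.77 (SE 0.12, limma adjusted p = 0.00482), under 2-fold. The call of the dimmer probe was lost without EGFP replicate 1 (-0.86) or Mkl1 replicate 2 (-0.93), with quantile normalization (-0.95), with normexp background correction (-0.49) and with only the compared arrays in the fit (limma adjusted p = 0.0962). The normexp alternative uses the median signal of a spot, not the processed one, and adds an offset of 50, which itself draws in the folds of dim probes. With shActb_2 the probes gave 0.75 (SE 0.13, limma adjusted p = 0.00412) and 0.59 (SE 0.12, limma adjusted p = 0.00688), and with shActb_1 -0.05 and 0.02. Celf4, a splicing regulator, was higher with Mkl1 on both probes, by 0.31 (limma adjusted p = 0.0296) and 0.61 (limma adjusted p = 0.00215), and with shActb_2 by 0.28 (limma adjusted p = 0.0229) and 0.49 (limma adjusted p = 0.00245). Elavl3 and the mature neuron marker Rbfox3 were near background. Rbfox3 read -1.51 on 1 shActb_2 array and -5.53 on the other.

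Of the synaptic vesicle proteins, the calcium sensor Syt1 fell with Mkl1. It read -0.72 and -1.07 with EGFP and -1.84 and -1.99 with Mkl1, a decrease of 1.02 (SE 0.13, 2.03-fold, limma adjusted p = 0.0024). Syt1 was higher with shActb_1 by 0.77 (SE 0.13, limma adjusted p = 0.0116) and differed by 0.30 with shActb_2 (SE 0.13, limma adjusted p = 0.103). Its call with Mkl1 sat at the 2-fold limit and was lost without EGFP replicate 1 (-0.84) or Mkl1 replicate 2 (-0.95), with normexp background correction (-0.81) and with quantile normalization (-0.93). Syn1, which tethers vesicles, was 0.79 on both EGFP arrays, 1.20 and 1.01 with Mkl1, and 1.78 and 1.66 on the arrays labelled Srf, a difference there of 0.93 (SE 0.08). It was 0.55 and 0.53 with shEGFP, 0.65 and 0.72 with shActb_1, and 0.85 and 0.86 with shActb_2. Its tested differences were 0.31 with Mkl1 (SE 0.08, limma adjusted p = 0.0286), 0.15 with shActb_1 (SE 0.08, limma adjusted p = 0.338) and 0.31 with shActb_2 (SE 0.08, limma adjusted p = 0.0157). Every treated array of Syn1 therefore lay above its controls, but under 2-fold. Snap25, a SNARE protein, passed no test. The vesicle glycoprotein Syp differed by -0.31 with shActb_2 (SE 0.09, limma adjusted p = 0.0301).

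Of the neuronal transcription factors, Dlx5, a homeobox factor of forebrain interneurons, fell in every tested comparison with a control. It read -2.09 and -2.05 with EGFP, -3.64 and -3.72 with Mkl1, and -3.40 and -3.35 on the arrays labelled Srf. It read -1.85 and -1.91 with shEGFP, -3.27 and -3.25 with shActb_1, and -2.95 and -3.09 with shActb_2. The duplicates lay within 0.14 of each other, and treated and control arrays did not overlap. Dlx5 fell by 1.61 with Mkl1 (SE 0.07, 3.05-fold, limma adjusted p = 2.88e-05), by 1.38 with shActb_1 (SE 0.07, limma adjusted p = 7.36e-05) and by 1.14 with shActb_2 (SE 0.07, limma adjusted p = 7.11e-05). Its difference on the arrays labelled Srf was -1.31 (SE 0.07). Between the hairpins, as shActb_2 minus shActb_1, Dlx5 differed by 0.24 (SE 0.07, limma adjusted p = 0.0294). From the median spot signal with normexp and the offset of 50, its decreases were under 2-fold (-0.98, -0.99 and -0.84), still with limma adjusted p under the threshold. With quantile normalization the decrease with shActb_2 was also under 2-fold (-0.98).

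Its relatives Dlx1 and Dlx2, which act earlier in the same lineage, differed from it. Dlx1 was lower with Mkl1 (-0.46, SE 0.08, limma adjusted p = 0.00843) and shActb_1 (-0.44, SE 0.08, limma adjusted p = 0.0171) but not with shActb_2 (0.19, limma adjusted p = 0.109). Dlx2 likewise gave -0.38 (limma adjusted p = 0.0172), -0.52 (limma adjusted p = 0.00933) and 0.21 (limma adjusted p = 0.0762). On the arrays labelled Srf, Dlx1 was higher by 0.64 and Dlx2 by 0.06. Tested directly, shActb_2 lay above shActb_1 by 0.63 for Dlx1 (SE 0.08, limma adjusted p = 0.00184) and 0.73 for Dlx2 (SE 0.08, limma adjusted p = 0.00106). Sox11 and Sox4, which act together in young neurons, were lower with Mkl1 by under 2-fold, at -0.45 (limma adjusted p = 0.0172) and -0.30 (limma adjusted p = 0.042). With the hairpins Sox11 differed by 0.07 and -0.02 and Sox4 by 0.07 and -0.15, none past the test. Myt1l, near background, passed no test.

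Gad2, which makes the transmitter GABA and is known as a mark of inhibitory neurons, moved in opposite directions with the hairpins, by less than 2-fold in each. It read -3.22 and -3.46 with shEGFP, -4.28 and -4.14 with shActb_1, and -2.49 and -2.65 with shActb_2. The 3 groups did not overlap. The difference was -0.87 with shActb_1 (SE 0.14, limma adjusted p = 0.00923) and 0.77 with shActb_2 (SE 0.14, limma adjusted p = 0.0042). Gad2 differed by -0.17 with Mkl1 (SE 0.14, limma adjusted p = 0.413).

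The hairpins were compared with each other directly. Of 45 member probes tested, 1 was higher with shActb_2 (Gad2) and 2 were lower (Crmp1 and Elavl4), beside 5.03% of all 35427 probes, 1.79% higher and 3.24% lower. Crmp1 was -0.63 and -0.76 with shEGFP, 0.25 and 0.10 with shActb_1, and -1.26 and -1.17 with shActb_2. It was thus higher than the control with shActb_1 (0.87, SE 0.15, limma adjusted p = 0.0132) and lower with shActb_2 (-0.52, SE 0.15, limma adjusted p = 0.0297). Elavl4, a Hu protein, was 0.67 and 0.87 with shEGFP, 1.08 and 1.02 with shActb_1, and 0.08 and -0.08 with shActb_2. It was lower with shActb_2 than with shEGFP by less than 2-fold (-0.77, SE 0.15, limma adjusted p = 0.00531) and differed by 0.28 with shActb_1 (SE 0.15, limma adjusted p = 0.329). With normexp background correction 1 of the 3 probes was still called, since Gad2 (0.94) and, narrowly, Elavl4 were then under 2-fold, and Elavl4 was also under it without shActb_2 replicate 2 (-0.97). Slide and hairpin cannot be told apart in these differences.

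**Figure D4:**
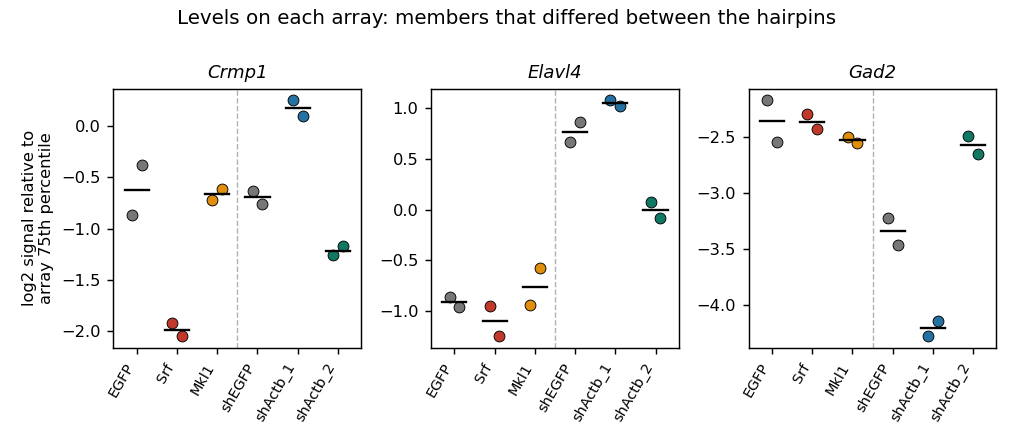
Level of 3 members on each array, as log2 signal relative to the 75th percentile of the array, with 1 point per array and a bar at the mean of 2 arrays. With shActb_1, Crmp1 lies above and Gad2 below the shEGFP arrays, and with shActb_2 the order is turned. Elavl4 is lower with shActb_2.

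Counted without the 2-fold limit, 5 member probes were higher and 19 lower with Mkl1 at a limma adjusted p under 0.05, beside 20.8% of all probes, 12.5% higher and 8.34% lower. With shActb_1, 2 were higher and 11 lower, beside 9.41% of all probes, 5.29% higher and 4.12% lower. With shActb_2, 7 were higher and 16 lower, beside 40.3% of all probes, 21.7% higher and 18.6% lower. Between the hairpins 12 were higher and 11 lower with shActb_2, beside 32.1% of all probes. For the arrays labelled Srf, 6 were higher and 13 lower, beside 25.5% of all probes, from which nothing is read. Of the 34 genes tested, 9 passed this limit on no probe in any of the 4 comparisons. The share of all genes that did so is not given here, so nothing is read from this count. The 9 genes were Stmn4, Dcx, Mapt, Map1b, L1cam, Rbfox3, Elavl3, Chga and Myt1l. Between comparisons that share no array, the differences of 45 member probes correlated with r = 0.59 (Mkl1 and shActb_1) and r = 0.482 (Mkl1 and shActb_2), and those of all probes with r = 0.485 and r = 0.396. These correlations are across probes, which are not independent replicates.

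A further 116 genes on the array, listed by function, were set beside the members. They are neuronal genes and 9 repressors of neuronal genes. With Mkl1, 3 of their 107 tested probes were called higher and 1 lower (3.74%, beside 2.78% of all probes). With shActb_1, 1 of 109 was higher and 1 lower (1.83%, beside 1.61%), and with shActb_2, 3 of 109 were higher and 2 lower (4.59%, beside 6.31%). These shares lay near or under those of all probes. The neurofilament light chain gene Nefl rose with Mkl1 by 2.84 (SE 0.20, limma adjusted p = 0.000278), with shActb_1 by 1.28 (SE 0.20, limma adjusted p = 0.00882) and with shActb_2 by 2.44 (SE 0.20, limma adjusted p = 0.000226). The motor neuron factor Isl1 fell with Mkl1 by 1.25 (SE 0.13, limma adjusted p = 0.00107) and with shActb_1 by 1.02 (SE 0.13, limma adjusted p = 0.00354), and differed by -0.58 with shActb_2 (limma adjusted p = 0.01). The bHLH factor Neurod2 rose with Mkl1 by 1.12 (SE 0.27, limma adjusted p = 0.0255) and with shActb_2 by 1.27 (SE 0.27, limma adjusted p = 0.00841).

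The other calls were few. The secretory chaperone Scg5 was at least 2.5-fold higher with Mkl1, where it was well above background on both arrays, and on neither with EGFP. The neuropeptide precursor Vgf differed by 1.08 with shActb_2 (SE 0.15) and was well above background on both of those arrays and on 1 with shEGFP. Both probes met the filter only through the group where they are high, so no test is given for them, although they are among the counts. With shActb_2 a probe of the NMDA receptor gene Grin1 fell by 1.23 (SE 0.07, limma adjusted p = 7.11e-05), and no other Grin1 probe was called. A probe of the tubulin gene Tubb2b fell by 1.54 with shActb_2 (SE 0.14, limma adjusted p = 0.000323), and its brighter probe differed by -0.43 (SE 0.12, limma adjusted p = 0.0216).

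On the arrays labelled Srf, 21 of 113 probes of these genes were higher and 4 lower, beside 3.29% and 2.25% of all probes. The 113 include 12 probes of the repressors, of which that of Hes1 is among the 21 that were higher. Of the cytoskeleton and axon genes 12 of 30 probes (10 genes) were higher and 1 lower, with a median of 0.75. The lists were not tested against each other. The axonal motors Kif1a (3.21, SE 0.13) and Kif5a (2.94, SE 0.27) led this list, and Nefl was higher by 1.41 (SE 0.20). Of the synaptic and secretory genes, 5 of 33 probes were higher and 2 lower, with a median of 0.03. Vgf was higher by 3.21 (SE 0.15). Syn2 was at least 2.36-fold higher, since it was not well above background with EGFP. Lower were the postsynaptic scaffold gene Dlg4 (-1.63, SE 0.16), the vesicle gene Sv2a (-1.15, SE 0.16) and the kinesin gene Kif21b (-1.09, SE 0.08). Grin1 was lower (-1.15, SE 0.33) on another probe than the one called with shActb_2. Of the transcription and RNA factors 3 of 28 probes were higher, and of the transmitter genes 1 of 10 was lower. Among genes that repress neuronal genes, Hes1 was higher by 1.11 (SE 0.10) on the arrays labelled Srf, and 0 of 12 probes were called with Mkl1 or either hairpin. The brightest probe of Rest, a repressor of neuronal genes, differed by 0.23 on the arrays labelled Srf, by 0.09 with Mkl1, by -0.01 with shActb_1 and by 0.18 with shActb_2 (SE 0.10).

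**Figure D5:**
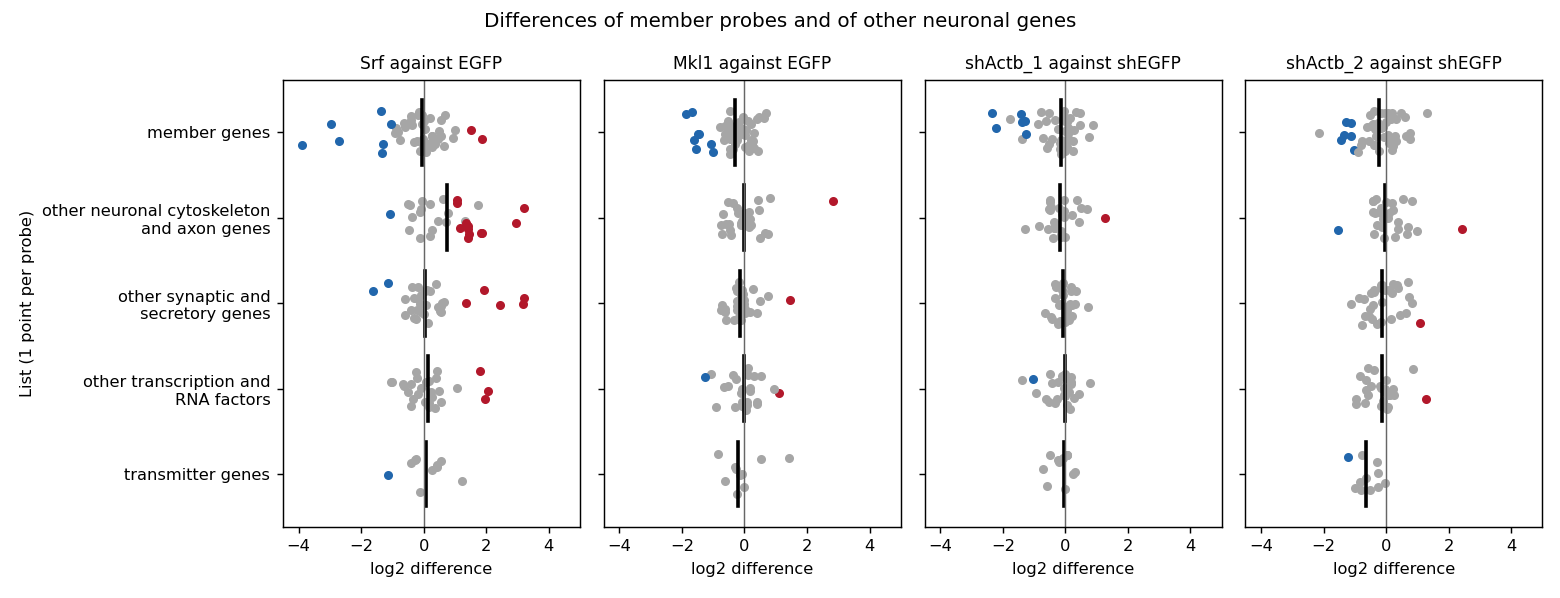
Log2 difference of each tested probe (1 point per probe, moved at random in height) from its control, for the members and 4 lists of other neuronal genes, in 4 comparisons. Red and blue points are past both thresholds, higher and lower, and the black bar is the median of the list. On the arrays labelled Srf the cytoskeleton and axon genes have a median of 0.75, and in the other panels the called members are all lower.

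Markers of other cell types moved alongside. The summed signal of 10 smooth muscle and fibroblast markers, relative to the 75th percentile, was 177 to 179 with EGFP, 241 to 268 with Mkl1 and 137 to 139 on the arrays labelled Srf. It was 144 to 154 with shEGFP, 197 to 213 with shActb_1 and 217 to 222 with shActb_2. Against this lower sum, 5 of the 10 probes of the list were higher on the arrays labelled Srf (Acta2, Cnn1, Tagln, and Lum and Myh11, which were not well above background with EGFP), 1 was lower (Col1a2, -1.10, SE 0.10), and the median difference was 0.99. Within this list the smooth muscle actin gene Acta2 rose with Mkl1 by 6.93 (SE 0.08, limma adjusted p = 2.91e-08), with shActb_1 by 4.42 (limma adjusted p = 7.69e-07) and with shActb_2 by 5.04 (limma adjusted p = 2.8e-07), while the fibroblast proteoglycan gene Dcn fell by 1.79, 1.96 and 1.55. Myh11, a defining marker of mature smooth muscle, was above background on no array of EGFP, shEGFP or shActb_1. It was above background on both arrays of Mkl1, of shActb_2 and of the group labelled Srf. Cnn1 and Tagln were also called higher with Mkl1 and with both hairpins. Of the neural stem cell markers, the glutamate transporter Slc1a3 fell by 1.37 with Mkl1 (SE 0.12, limma adjusted p = 0.000683), by 1.3 with shActb_1 and by 1.11 with shActb_2, and Sox2 by 1.01 with shActb_1 (SE 0.14, limma adjusted p = 0.00584). Fabp7 also fell with shActb_1, and a probe of Sox1 with shActb_2. Others of this list rose, Nes (1.16, SE 0.15, limma adjusted p = 0.00234) and Sox9 (1.04, SE 0.08, limma adjusted p = 0.000416) with Mkl1, and Sox9 (1.02, SE 0.08, limma adjusted p = 0.000199) with shActb_2. A probe of Pax6 was also called higher with shActb_2. The summed level of that list was 281 to 298 with EGFP, 324 to 338 with Mkl1, 260 to 269 on the arrays labelled Srf, 254 to 258 with shEGFP, 275 to 278 with shActb_1 and 366 to 368 with shActb_2. The stem cell marker Sox2 was also lower on the arrays labelled Srf (-1.05, SE 0.14). The summed level of 7 astrocyte markers was 70 to 86.4 with EGFP, 54.9 to 59.9 with Mkl1, 38 to 40.9 on the arrays labelled Srf, 54.7 to 55 with shEGFP, 40.3 to 41.5 with shActb_1 and 59.8 to 63.3 with shActb_2. Of these markers Aldoc was past both thresholds, lower on the arrays labelled Srf (-1.16, SE 0.11), and it differed by -0.46 with Mkl1 (SE 0.11, limma adjusted p = 0.0228), by -0.41 with shActb_1 and by 0.27 with shActb_2. The sum of 7 pluripotency markers was 4.28 to 4.71 on the arrays labelled Srf, where Esrrb was higher by 2.53 (SE 0.12), and between 1.8 and 3 in the other groups. A dimmer probe of Nanog fell with shActb_2 (-1.12, SE 0.21, limma adjusted p = 0.0049). The sum of 6 microglia markers was 7.12 to 7.26 with EGFP, 6.53 to 7.82 with Mkl1 and 11 to 11.3 on the arrays labelled Srf, where Csf1r was higher by 1.44 (SE 0.12) and Aif1 lower (-1.29, SE 0.36). Aif1 fell with Mkl1 (-1.51, SE 0.36, limma adjusted p = 0.0253) and Ptprc with shActb_2 (-1.02, SE 0.31, limma adjusted p = 0.0325), where the microglia sum was 8.42 to 9.32 against 9.17 to 11 with shEGFP. The median difference over the 4 comparisons with a control lay between -0.25 and 0.1 for the probes of the oligodendrocyte lineage markers and between -0.54 and -0.13 for those of 5 endothelial markers. The part of these changes in the decreases of Stmn2, Gprin3, Map2 and Dlx5 was not tested.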

How the data were processed

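RNA from 12 samples was labelled with cyanine 3 and hybridized to 1-color Agilent mouse arrays. Scans were read by the authors with Feature Extraction 11.5.1.1, who deposited, per the file headers, a background-subtracted processed signal intensity for each of 62976 features, without normalization between arrays. The authors also deposited a table of log2 values, which matched log2 of the same signals minus a constant per array, within 0.01 for 100% of values. Its column medians lie between -4.092 and -3.676, and what its constant stands for was not settled further. The authors' log2 table served as an alternative.

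Here control spots and spots with outlier flags were left out, spots of a probe were averaged (55681 probes) and the 75th percentile of log2 intensity was subtracted on each array. Probes were named by their accession through RefSeq (28026 probes, 50.33%). Between 59.28% and 72.49% of probes were well above background per array, and the number of arrays limits the precision. limma 3.58.1 (R 4.3.3) was fitted with 1 mean per group over all 12 arrays, and p-values were adjusted over all probes tested in a comparison. Where a group had no array above background, the fold is a bound, the mean of the brighter group against the lowest signal well above background or the dim probe's own signal, whichever was higher. Simulated data with known changes were used to check the fit. A gene is represented by its brightest tested probe, and other probes are given where their call differs. Every member is named, with full statistics for called genes and the stathmins, and of other neuronal genes those called with the largest change, of which 1 is not reported here. The members and lists were chosen with earlier results of these data known. Alternatives to background correction, normalization, filters, thresholds, the fit and the arrays used are described at the end. Motifs were searched in the 250 bases before each RefSeq start (GRCm38.p6).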

Additional observations from a re-analysis of the deposited data

Results flagged for a closer look

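The 2 hairpins against Actb gave differences from each other that were tested directly, by limma over all probes, as shActb_2 minus shActb_1. These were past both thresholds for 3 members, beside 5.03% of all probes tested. The collapsin response gene Crmp1 differed by -1.39 (SE 0.15, 2.61-fold, limma adjusted p = 0.000963), with both shActb_2 arrays below both shActb_1 arrays. The Hu protein gene Elavl4 differed by -1.05 (SE 0.15, 2.07-fold, limma adjusted p = 0.0023), again with both arrays below. The GABA synthesis gene Gad2 differed by 1.65 (SE 0.14, 3.13-fold, limma adjusted p = 0.000394), with both arrays above. With normexp background correction Gad2 (0.94) and, narrowly, Elavl4 were under 2-fold, as was Elavl4 without shActb_2 replicate 2 (-0.97). The shActb_2 arrays had a slide to themselves, and slide and hairpin cannot be told apart. Groups of 2 arrays are too small for a test of single arrays that lie far from the rest of their group.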

How the results depend on the processing

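Of the alternative counts of member probes called, 110 stayed within 1.5 times the value reported without a turn of direction, and 10 did not. Of the 110, those between the hairpins were evenly split without shActb_2 replicate 1 (2 higher and 2 lower) and replicate 2 (1 and 1), against 1 higher and 2 lower with all arrays. With Mkl1 the count of 8, beside 2.78% of all probes, became 5 with normexp background correction (beside 1.03%), 3 with only the compared arrays in the fit (beside 0.352%) and 5 with 1 probe per gene (beside 4% of the genes). The normexp alternative also changed the signal, to the median of the spot, and added an offset of 50. Without a fold limit it became 24 with Mkl1, 19 on the arrays labelled Srf, 13 with shActb_1, 23 with shActb_2 and 23 between the hairpins, the last of which then leaned the other way, with 12 higher and 11 lower. Between the hairpins normexp left 1, beside 1.18% of all probes, against 5.03%. With each array left out in turn the counts ranged from 5 to 8 with Mkl1 (5 without Mkl1 replicate 2), 8 to 10 on the arrays labelled Srf, 6 to 6 with shActb_1, 5 to 8 with shActb_2 and 2 to 4 between the hairpins. An array left alone in its group was assumed to vary like the other groups. With only the compared arrays in the fit, Stmn2, Syt1 (limma adjusted p = 0.0873), Elavl2 (limma adjusted p = 0.0962) and the brightest probes of Map2 and Gprin3 no longer passed with Mkl1, while Dlx5 and the dimmer probes of Map2 and Gprin3 did. The brightest Gprin3 probe also missed the threshold with shActb_2 without shEGFP replicate 1 (limma adjusted p = 0.0553) or shActb_2 replicate 2 (limma adjusted p = 0.0551), and with Mkl1 without Mkl1 replicate 2 (limma adjusted p = 0.0519). The sign turned for Stmn1 on the arrays labelled Srf with quantile normalization (0.0046) and with 1 EGFP array left out (range -0.15 to 0.05), and for Stmn4 with shActb_2 with 1 shActb_2 array left out (range -0.08 to 0.26). The cause was not tested.

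Whether the replicate numbers pair the arrays was not settled. The deviations of same-numbered arrays correlated between -0.148 and 0.323 over 15 pairs of groups, and 4 pairs were over 0.1. With the replicate number as a block the counts were 8 with Mkl1, 9 on the arrays labelled Srf, 6 with shActb_1, 6 with shActb_2 and 3 between the hairpins, as without it. A slide term adds nothing to a fit with 1 mean per group, since each group lay on 1 slide, and gave no further value. Dim probes limit what was measured of Stmn3, Dcx, Rbfox3, Elavl3, Myt1l, Scg2, Chga and Gad1.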
